A study of Mus musculus with 20 samples.

Results

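The accessible sites of mouse chromosome 11 were described across 10 CTCF genotypes. Peaks of the 10 peak lists were merged wherever at least 1 bp overlapped, which gave 222457 regions, and the 16442 regions on chromosome 11 (7.39%) are the subject here. The chromosome, and the 3 lists set beside the others (K365T, R377H and R448Q), were chosen by the share of each list's peaks that lies on it. That share, and every count that rests on it, is therefore given as a description without a test.

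The study measured accessible chromatin by Omni-ATAC-seq, in which a transposase cuts open DNA and leaves sequencing adapters behind, in 20 samples. All of them derive from E14Tg2a mouse embryonic stem cells of the 129/Ola strain that carry an auxin-inducible degron on the endogenous CTCF, and were grown with serum, leukemia inhibitory factor, CHIR99021 and PD0325901. All groups received 500 µM indole-3-acetic acid, which removes the endogenous CTCF, and 1 µg/ml doxycycline, which switches on a stable Ctcf transgene, for 2 days. The groups differ in that transgene, which was wild type (WT) or carried 1 substitution, R339Q, R342C, S354F, K365T, R377C, R377H, Q418R, R448Q or H455R. Each genotype is 1 cell line with 2 replicates, and the labels do not say if these were separate cultures. The authors combined both replicates into 1 list per genotype, so no value below has a spread between replicates, no test between genotypes was possible, and a property of a line cannot be told apart from an effect of its transgene. The 95% intervals are exact binomial (Clopper-Pearson) intervals over peaks or regions and cover counting error only.

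CTCF binds DNA through a row of zinc fingers and, where it blocks the sliding of cohesin, sets the ends of chromatin loops and insulates neighbouring genes from each other's enhancers. Accessible sites in embryonic stem cells comprise the starts of active genes, enhancers and CTCF sites, and a peak caller reports those where cut ends pile up above the surrounding level. Chromosome 11 is a gene-rich mouse chromosome that holds the Hoxb cluster, the alpha globin genes, the type 2 helper T cell cytokine genes, CC chemokines, myosin heavy chains and type I keratins. By textbook knowledge of the protein, which the labels do not give, K365T lies in the fourth zinc finger, R377H in the linker after it, and R448Q in the seventh zinc finger.

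Promoter sequences are shown for sites that separate the 3 lists from the rest and, for contrast, for the strongest gene-end site held by every list. Each runs 5′ to 3′ on the gene's strand, from 250 bases before the gene's start to 50 after it (RefSeq, GRCm38.p6), and capitals mark the bases inside the merged region. Slfn4, a Schlafen family gene of myeloid cells, and Gm42092, a gene outside the protein-coding set, had a region in K365T, R377H and R448Q only. Lypd9, which encodes a LY6/PLAUR domain protein, had one in these 3 lists and R377C, and Kcnj16, which encodes an inward rectifier potassium channel subunit, in these 3 and Q418R. Elac2 encodes the endonuclease that trims the 3′ ends of tRNA precursors.
Slfn4, chr11:83174936-83175235, plus strand: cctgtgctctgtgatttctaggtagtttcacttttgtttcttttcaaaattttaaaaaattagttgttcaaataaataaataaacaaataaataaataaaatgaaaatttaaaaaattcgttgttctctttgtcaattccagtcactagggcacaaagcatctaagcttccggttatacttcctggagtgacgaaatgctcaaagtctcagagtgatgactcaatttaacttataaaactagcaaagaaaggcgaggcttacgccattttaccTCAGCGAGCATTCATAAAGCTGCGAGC
Gm42092, chr11:104073090-104073389, minus strand: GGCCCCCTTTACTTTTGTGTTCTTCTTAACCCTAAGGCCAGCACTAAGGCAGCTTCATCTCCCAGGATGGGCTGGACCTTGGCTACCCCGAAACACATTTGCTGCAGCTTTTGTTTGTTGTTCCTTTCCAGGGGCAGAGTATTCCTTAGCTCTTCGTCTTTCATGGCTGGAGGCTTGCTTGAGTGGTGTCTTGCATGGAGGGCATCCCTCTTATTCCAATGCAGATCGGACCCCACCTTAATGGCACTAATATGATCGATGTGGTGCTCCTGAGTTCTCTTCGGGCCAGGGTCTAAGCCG
Lypd9, chr11:58452917-58453216, minus strand: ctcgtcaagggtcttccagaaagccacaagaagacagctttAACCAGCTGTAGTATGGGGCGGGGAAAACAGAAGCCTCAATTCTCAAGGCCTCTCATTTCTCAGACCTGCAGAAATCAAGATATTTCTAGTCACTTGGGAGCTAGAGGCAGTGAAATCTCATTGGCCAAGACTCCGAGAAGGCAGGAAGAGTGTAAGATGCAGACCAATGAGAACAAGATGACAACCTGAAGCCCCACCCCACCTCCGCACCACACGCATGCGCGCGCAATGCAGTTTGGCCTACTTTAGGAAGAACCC
Kcnj16, chr11:111023610-111023909, plus strand: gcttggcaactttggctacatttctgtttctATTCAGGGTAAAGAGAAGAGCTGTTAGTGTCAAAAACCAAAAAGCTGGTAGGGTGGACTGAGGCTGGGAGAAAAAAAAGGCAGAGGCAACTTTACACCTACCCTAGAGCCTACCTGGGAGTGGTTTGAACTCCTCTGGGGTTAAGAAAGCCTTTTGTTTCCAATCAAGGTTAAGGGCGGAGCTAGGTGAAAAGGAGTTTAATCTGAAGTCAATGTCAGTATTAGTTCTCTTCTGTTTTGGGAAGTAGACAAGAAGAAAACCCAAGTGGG
Elac2, chr11:64978785-64979084, plus strand: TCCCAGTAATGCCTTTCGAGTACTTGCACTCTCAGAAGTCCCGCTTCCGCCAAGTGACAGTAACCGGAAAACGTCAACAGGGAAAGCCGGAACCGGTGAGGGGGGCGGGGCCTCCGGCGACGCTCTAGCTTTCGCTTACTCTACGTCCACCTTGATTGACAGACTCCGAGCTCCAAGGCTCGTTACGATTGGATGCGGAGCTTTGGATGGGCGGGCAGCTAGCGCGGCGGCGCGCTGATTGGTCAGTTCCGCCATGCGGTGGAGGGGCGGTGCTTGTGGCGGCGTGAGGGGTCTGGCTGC

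The region at Slfn4 (83175209 to 83175628) reached only the last 27 bases of the promoter window, past the gene's start, whereas those at Gm42092 and Elac2 covered all 300 bases. At Lypd9 the region covered 259 bases and at Kcnj16 269. By within-list percentile, where 100 is the strongest peak of a list by the authors' fold enrichment, the Slfn4 site stood at 18.9 in K365T, 21.8 in R377H and 16.2 in R448Q, so it was weak in each. The Lypd9 site stood at 63.2, 61.8 and 68.2 in the same lists and at 58.9 in R377C, above the middle of all 4 lists. The Kcnj16 site stood at 29.5, 31.4 and 58.0, and at 28.9 in Q418R. The Elac2 site stood between 99.8 and 100.0 in the 10 lists. The letters AGGNGGC, taken from the core of the CTCF motif, were searched on both strands of these windows, and 1 match was found, at base 2 of the Gm42092 window on the minus strand. They occur in 29.4% of the 32851 promoters of the table and in 32.2% of the 2289 on chromosome 11. Of chromosome 11 promoters overlapped by a region of all 10 lists 41.0% held them, and of those overlapped by no region 19.7%. Of the 2 promoters overlapped by a region of the 3 lists only, 1 held them.

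Chromosome 11 carried a larger part of the peak list in R377H, K365T and R448Q than in the other 7 genotypes. In R377H 12599 of 146318 peaks lay there, 8.61% (8.47 to 8.76). In K365T the number was 11198 of 139580, 8.02% (7.88 to 8.17), and in R448Q 11278 of 145504, 7.75% (7.61 to 7.89). WT had 12294 of 171719 peaks on the chromosome, 7.16% (7.04 to 7.28). The remaining 6 lists held 8827 to 11400 peaks there, with 7.29% in R339Q, 7.19% in R342C, 7.17% in S354F, 7.18% in R377C, 7.30% in Q418R and 7.13% in H455R. R377C, with the same arginine replaced as in R377H, was among the 7. R377H was the list with the most peaks on chromosome 11 although WT held more peaks in all. The peaks covered 6.49 Mb of the chromosome in R377H and 6.24 Mb in WT.

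**Figure D1:**
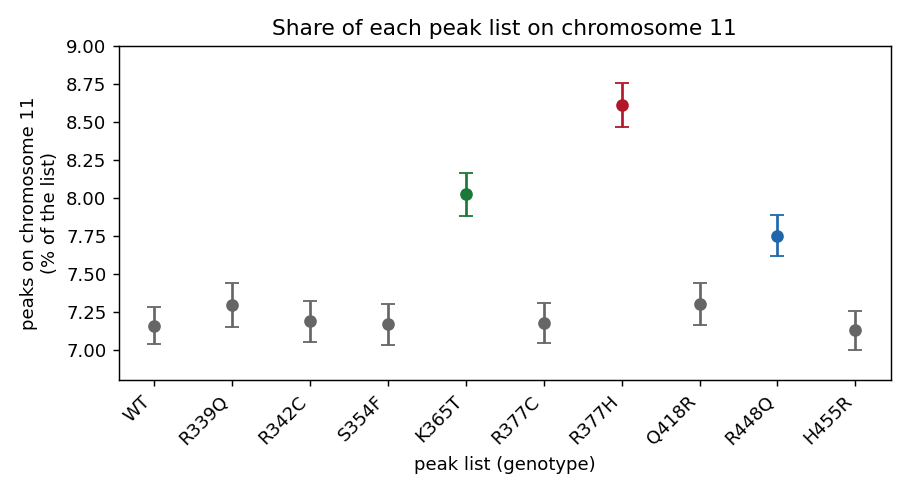
Share of each peak list that lies on chromosome 11 (points, in percent of the list's peaks, on an axis that does not start at 0) with 95% exact binomial intervals, for the 10 genotypes. K365T, R377H and R448Q lie at 7.75% to 8.61%, above the 7.13% to 7.30% of the other 7 lists.

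The share of a list on a chromosome was divided by the median share of the other 9 lists, and the log2 of this ratio is called the shift. The shift of chromosome 11 was 0.26 in R377H (1.20-fold), 0.16 in K365T (1.12-fold) and 0.11 in R448Q (1.08-fold), against -0.03 to 0.02 in the other 7 lists. With each list limited to its 121032 strongest peaks, the length of the shortest list, the shift was 0.22 in R377H, 0.12 in K365T and 0.063 in R448Q, and the R448Q share (7.30%) was then level with that of R339Q (7.29%). With the stronger 50% of each list it was 0.19, 0.10 and 0.064. At the median share of the other lists, R377H would have held 2083 fewer peaks on chromosome 11, K365T 1167 fewer and R448Q 821 fewer. Among 20 chromosomes, 11 had the highest shift of all in R377H, where the next, chromosome 18, had 0.00. In K365T it ranked 2, behind chromosome 1 at 0.22, and in R448Q it ranked 4, with chromosome 3 highest at 0.33. R377H thus differed from the other lists on chromosome 11 above all, while K365T and R448Q held other chromosomes with a shift as high or higher. In H455R and Q418R, whose chromosome 11 shifts were near 0, chromosomes 8 (0.26) and X (0.13) were highest.

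The profile along the chromosome differed among the 3 lists. The chromosome was divided into 25 bins of 5 Mb, numbered from the centromeric end. In R377H all 25 bins had a shift above 0, from 0.06 in bin 24 to 0.55 in bin 6 (25 to 30 Mb), and 20 of 25 passed 0.2. On the other chromosomes 0.213% of 469 bins passed 0.2 in this list, which is 1 bin. K365T also had all 25 bins above 0, from 0.06 to 0.33, but only bins 6, 7 and 8 passed 0.2, while 5.76% of its bins elsewhere did. In R448Q 9 of 25 bins passed, against 16.8% elsewhere, and 17 were above 0. The other 7 lists had 0 bins above 0.2 on chromosome 11, and S354F had 1 bin below -0.2. R377H was the highest of the 10 lists in 22 bins, R448Q in 2 and K365T in 1. Bins 6, 7 and 8 passed in all 3 lists, and the 9 bins that passed in R448Q all passed in R377H.

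The values next to the limit of 0.2 were close to it on both sides. In R377H bins 22, 13 and 14 passed with 0.20, 0.22 and 0.22, and bins 20, 21 and 16 missed it with 0.17, 0.16 and 0.16. The 3 bins that passed in K365T had 0.23, 0.23 and 0.33, and the nearest below were bins 5, 18 and 9 with 0.20, 0.20 and 0.19. In R448Q bins 2, 19 and 5 passed with 0.24, 0.26 and 0.26, and bins 22, 23 and 25 missed with 0.20, 0.17 and 0.15. The median bin of K365T had 0.15, and its lowest bins, 1, 3 and 24, had 0.06, 0.08 and 0.08.

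In R448Q the rise was in parts of the chromosome. Its bins 2 to 9 (5 to 45 Mb) had shifts of 0.24 to 0.40, its bins 10 to 17 (45 to 85 Mb) of -0.14 to -0.02, and its bins 18 to 25 of 0.06 to 0.26. In steps of 1 Mb the R448Q shift was 0.35 at 43 to 44 Mb, 0.20 at 44 to 45 Mb, 0.00 at 45 to 46 Mb and -0.24 at 46 to 47 Mb. It turned up again farther on, with -0.33 at 84 to 85 Mb, -0.17 at 85 to 86 Mb, 0.09 at 86 to 87 Mb and 0.21 at 87 to 88 Mb. Split at 45 and 85 Mb, positions read from this profile, the 3 stretches had R448Q shifts of 0.29, -0.07 and 0.12. In R377H they were 0.35, 0.26 and 0.18, which falls along the chromosome, and in K365T 0.18, 0.13 and 0.14. In counts, R448Q held 2949 peaks in the first stretch against 2837 in WT, and 3547 against 4300 in the second. R377H held 3090 and 4468.

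**Figure D2:**
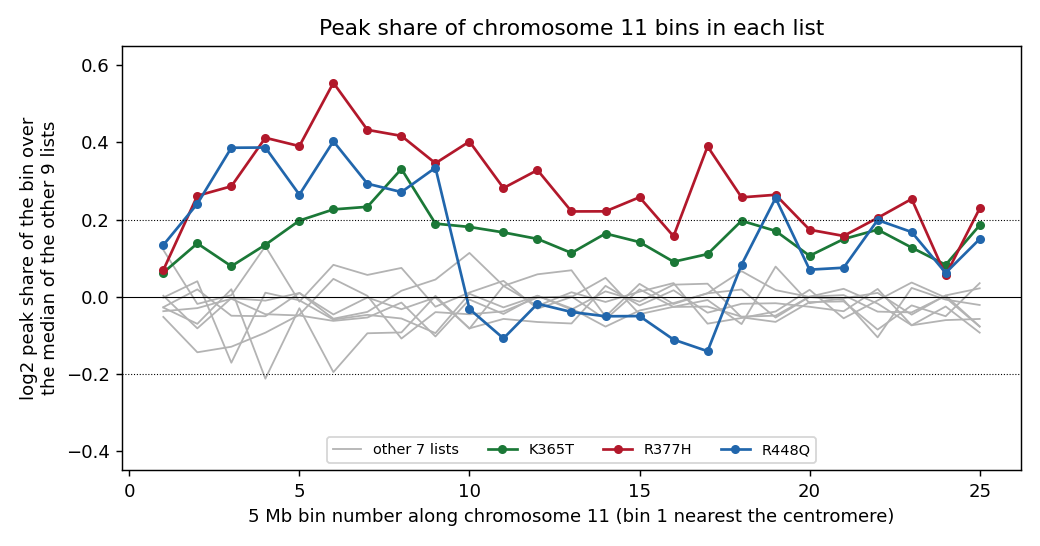
Shift of each 5 Mb bin of chromosome 11 (log2 of the bin's share of a list over the median of the other 9 lists) against the bin number, with K365T, R377H and R448Q in colour, the other 7 lists in grey and dotted lines at 0.2 and -0.2. R377H lies above 0 in all 25 bins, K365T lies mostly lower but also above 0, and R448Q is high in bins 2 to 9 and below 0 in bins 10 to 17.

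The shift was larger where sites are sparse. In the 37 bins of 1 Mb with a median of under 50 peaks a list, the shift was 0.50 in R377H, 0.35 in R448Q and 0.28 in K365T. In the 59 bins with 50 to 150 peaks it was 0.30, 0.08 and 0.17 in the same order, and in the 23 bins with 150 or more it was 0.12, 0.07 and 0.10. The other 7 lists stood between -0.17 and 0.11 in the sparse bins and between -0.04 and 0.02 in the dense ones. The counts show the size of this, with 1177 peaks in the sparse bins in R377H, 1055 in R448Q, 964 in K365T and 958 in WT, and 721 to 856 in the other 6.

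It was also larger among weak peaks. Each list was split into 5 parts of equal size by fold enrichment. In the weakest part 11.2% of the R377H peaks lay on chromosome 11, against 9.74% in K365T, 9.58% in R448Q, 8.44% in WT and 8.06% to 8.75% in the other 6. In the strongest part the shares were 7.66%, 7.41%, 7.08% and 6.58%, with 6.47% to 6.76% in the other 6. The R377H shift was thus 0.41 in the weakest part and 0.22, 0.15, 0.20 and 0.20 in the parts above it, while K365T had 0.21, 0.17, 0.10, 0.08 and 0.15 and R448Q 0.18, 0.11, 0.04, 0.04 and 0.08. All 3 lists were above 0 in each part, the strongest included, but in the part next to the strongest R448Q stood level with R339Q (0.04).

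**Figure D3:**
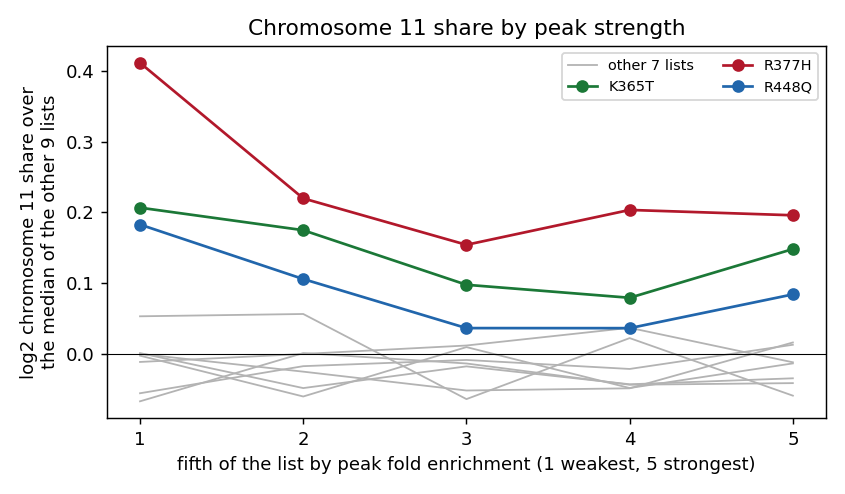
Chromosome 11 shift (log2, vertical axis) in each of 5 equal parts of a list ordered by peak fold enrichment (horizontal axis, 1 weakest to 5 strongest), with K365T, R377H and R448Q in colour and the other 7 lists in grey. R377H falls from 0.41 in the weakest part to 0.20 in the strongest, and the 3 lists stay above 0 in all 5 parts.

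Chromosome 11 peaks ranked below the rest of the genome within every list, and most so in the 3 lists when the lists were taken at full length. Their median within-list percentile was 44.9 in R377H, 45.5 in K365T and 45.8 in R448Q, with 50.1, 50.4 and 50.3 for the other chromosomes. In the other 7 lists it was 46.3 to 47.8. These ranks include the weak peaks by which the lists differ in length. With lists cut to equal length the medians were 47.6 in R377H, 48.3 in K365T and 48.5 in R448Q. The other 7 lists then had 47.1 to 49.5, so the 3 lists were no longer the lowest. Over the 81147 regions of the autosomes and X that all 10 lists hold, 6074 of them on chromosome 11, ranks can be compared because each list ranks the same regions. There the chromosome 11 median percentile was 49.6 in R377H, 48.8 in K365T and 47.3 in R448Q, above the 44.9 to 46.1 of the other 7. The 3 lists thus stood above the others over the shared regions and below them over all peaks of the full lists. On the other chromosomes the medians were 50.0 to 50.4 in all 10 lists.

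Region by region, the percentile in a list was set against the median percentile of the same region in the other 9 lists. The median difference over the 6074 regions was 1.03 points in K365T and 0.98 in R377H, each the highest of the 20 chromosomes in its list, and 0.15 in R448Q, which ranked 4. R339Q, with 0.47, stood above R448Q by this measure, but R339Q had 0.48 on the other chromosomes too, where R448Q had -0.13. In K365T 57.0% of these regions stood above the median of the other lists and in R377H 57.1%, against 50.0% and 49.6% on the other chromosomes. In R448Q it was 51.0% against 49.2% elsewhere, and in R339Q 52.9% against 53.0%. R448Q was divided along the chromosome as in its peak counts, with 0.81 before 45 Mb, -0.66 between 45 and 85 Mb and 0.52 beyond. R377H had 1.50, 0.87 and 0.87 and K365T 0.87, 1.16 and 1.02 in these stretches. WT had the lowest median difference on chromosome 11, -1.03 points, against -0.42 on the other chromosomes.

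Regions that recur in the same number of the other 7 lists were then compared between chromosome 11 and the rest of the genome. Of the 1068 chromosome 11 regions held by 3 of those 7 lists, R377H held 60.7% (57.7 to 63.6), against 36.5% of such regions elsewhere. K365T held 44.1% (41.1 to 47.1) against 32.4%, and R448Q 47.8% (44.8 to 50.9) against 37.8%. Regions in only 1 of the 7 were held by R377H in 25.0% of cases on chromosome 11 and in 11.6% elsewhere. Regions in 6 of the 7 were held by it in 92.7% and 80.9%. The difference was therefore present from rarely called to nearly constant sites. Over 1 to 6 of the 7 lists it was 11.8 to 24.1 points in R377H, 6.8 to 13.1 in K365T and 5.2 to 10.0 in R448Q. The same comparison for each of the other 7 lists, against the 6 that remain, gave -1.7 to 4.0 points.

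**Figure D4:**
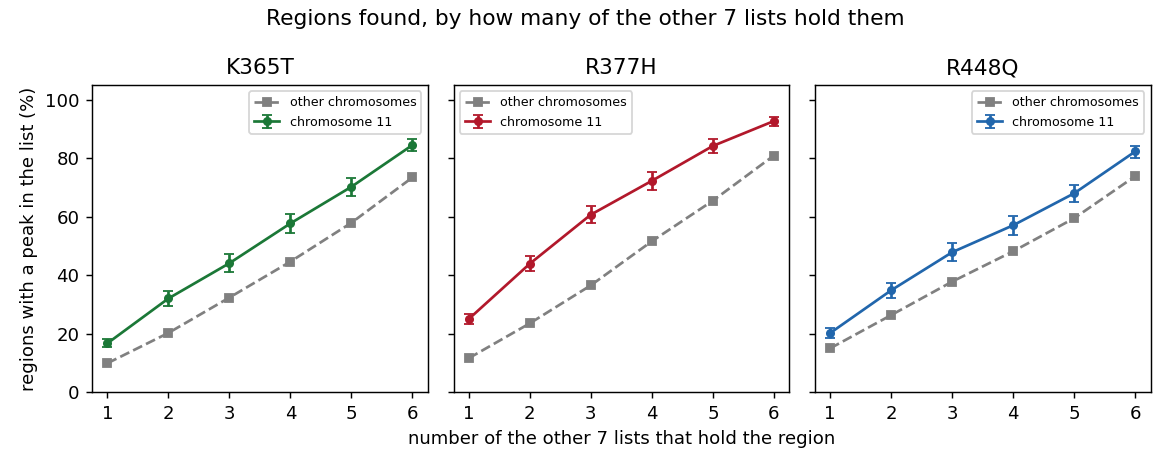
Percent of merged regions with a peak in K365T, R377H or R448Q (one panel each) against the number of the other 7 lists that hold the region, for chromosome 11 (solid, with 95% exact binomial intervals) and the other chromosomes (dashed). At 3 of the 7 lists R377H holds 60.7% of the chromosome 11 regions and 36.5% elsewhere, and the chromosome 11 line is the upper one in all 3 panels.

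Set against WT, the 3 lists kept more WT sites on chromosome 11 than elsewhere and also held more sites that WT lacks. A WT peak counted as found where at least 1 bp overlapped. R377H found 82.8% (82.1 to 83.5) of the 12294 WT peaks of chromosome 11 and 73.3% of WT peaks on the other chromosomes. K365T found 78.2% (77.4 to 78.9) against 71.2%, and R448Q 77.2% (76.4 to 77.9) against 72.0%. The other 6 mutants found nearly equal shares in both places. R339Q found 65.7% on chromosome 11 and 64.8% elsewhere, R342C 74.5% and 73.8%, S354F 76.0% and 75.7%. R377C found 79.7% and 79.0%, Q418R 70.8% and 69.1%, H455R 80.7% and 80.6%. H455R found fewer WT peaks on chromosome 11 than R377H but more than it elsewhere.

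Among the 2260 chromosome 11 peaks in the strongest 20% of WT, R377H and R377C lacked 0, K365T 1, H455R 2, S354F 3, R342C and Q418R 4 each, R448Q 9 and R339Q 18. In each of the 9 mutants the share lacked was smaller than on the other chromosomes. It was 0.398% against 0.926% in R448Q, 0.796% against 0.976% in R339Q and 0% against 0.296% in R377H. The strong WT sites were thus held almost throughout, and nearly all WT sites that a mutant list lacked on chromosome 11 were weaker ones. In the other direction, 2456 R377H peaks on chromosome 11 had no WT overlap, 19.5% of the list's peaks there against 11.4% elsewhere. K365T had 1356, 12.1% against 8.66%, and R448Q 1869, 16.6% against 14.6%. In the other 6 mutants the 2 shares were closer, with 7.68% and 7.09% in R339Q, 9.57% and 9.79% in R342C, 8.96% and 8.81% in S354F, 10.7% and 10.8% in R377C, 7.86% and 7.98% in Q418R, and 12.5% and 13.2% in H455R. The sites without a WT overlap were weak. Their median within-list percentile on chromosome 11 was 21.8 in R377H, 18.9 in K365T and 19.7 in R448Q.

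Sites held by a single list showed the same 2 genotypes. Of 3836 regions found in R377H alone, 762 (19.9%) lay on chromosome 11, and of 2396 found in K365T alone, 270 (11.3%). In R448Q 466 of 6772 (6.88%) did, close to the 5.21% to 6.13% of the other 7 lists. Combinations that include R377H without any of the 7 were also frequent on this chromosome. R377H with K365T gave 72 regions, 22.6% of all such regions, R377H with R448Q 146 (16.4%), and K365T with R448Q 70 (7.65%).

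Regions in K365T, R377H and R448Q and in no other list numbered 80 on chromosome 11, 0.487% of its 16442 regions (0.386 to 0.605). Over all chromosomes 449 regions, 0.202%, had this pattern, and outside chromosome 11 it was 369 of 206015, 0.179% (0.161 to 0.198). The share on chromosome 11 was 2.72 times that elsewhere and the highest of 20 chromosomes, followed by chromosome 1 with 0.371% (0.282 to 0.479) and chromosome 3 with 0.350% (0.249 to 0.478), whose intervals overlap with that of chromosome 11. The 80 regions lay mostly before 45 Mb. There 43 of 4035 regions had the pattern, 1.07% (0.772 to 1.43), against 13 of 5721 (0.227%, 0.121 to 0.388) between 45 and 85 Mb and 24 of 6686 (0.359%, 0.230 to 0.534) beyond. The middle stretch, where R448Q held fewer peaks, was near the level of the other chromosomes. Outside the first 45 Mb the share was 1.66 times that of the other chromosomes. The highest share of a bin was 3.02% in bin 8 (35 to 40 Mb), with 8 of 265 regions.

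**Figure D5:**
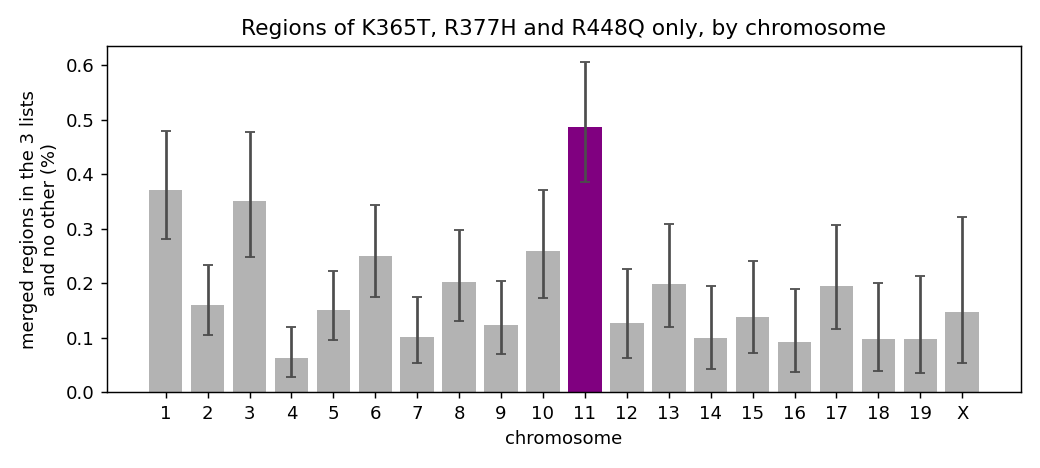
Percent of the merged regions of each chromosome (bars from 0, with 95% exact binomial intervals) that have a peak in K365T, R377H and R448Q and in no other list. Chromosome 11 (purple) is highest at 0.487%, with intervals that overlap those of chromosomes 1 and 3.

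These 80 sites were short and weak, but absence from 7 lists can itself select for such sites. Their median width was 326.5 bp, against 452 bp for all chromosome 11 regions, which include those of all 10 lists with 824 bp. Regions in the other 7 lists only had 338 bp and those in WT only 223 bp, so short width was not particular to the 80. Their median percentile was 29.5 in K365T, 40.0 in R377H and 36.5 in R448Q, with highest values of 72.7, 68.7 and 78.9, and 4 sites stood above 50 in all 3 lists. Counting only the stronger 50% of peaks in the 3 lists, against all peaks of the other 7, likewise left 4 sites. By location 4 lay within 1 kb of an annotated end of a protein-coding gene (gene ends), 38 elsewhere in the body of such a gene and 38 between genes. Over all chromosome 11 regions 12.6% lay at gene ends, 50.1% in gene bodies and 37.2% between genes. Regions in WT only had 7.71%, 66.0% and 26.3% in the same order.

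Of the 4 gene-end sites, that of Abca9, a member of the ABC transporter family, was at 110099770 to 110100068, at the end of the gene away from its promoter, with percentiles of 43.3 in K365T, 67.2 in R377H and 64.8 in R448Q. The site of Olfr315, an olfactory receptor gene, was the widest of the 80 (58778183 to 58779098), with percentiles of 43.3, 35.9 and 16.2. Slfn4 is described above. The site of Kif2b, which encodes a microtubule-depolymerising kinesin, at 91575997 to 91576338 had 32.0, 15.2 and 12.8, and other sites at the ends of this gene were present in other lists. Abca9, Olfr315 and Slfn4 were thus the 3 protein-coding genes with a gene-end peak in the 3 lists only. A further 7 had one in the 3 lists and 1 other, Mrpl22 and Olfr378 in WT, Lypd9 and Aldh3a1 in R377C, Tlk2 in S354F, and Prr29 and Uts2r in H455R.

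The 10 strongest of the other sites, ordered by their lowest percentile in the 3 lists, comprised 6 sites between genes and 4 in gene bodies. The first lay 691 kb from Bcl11a (24864631 to 24864994), which encodes a zinc finger repressor of fetal globin, at percentiles of 56.3 in K365T, 55.4 in R377H and 54.8 in R448Q. The next, 7.69 kb from Slit3, a secreted guidance ligand of Robo receptors (35716196 to 35716582), had 61.1, 63.7 and 51.1. A site inside Cacng5, a calcium channel gamma subunit gene (107887395 to 107887766), had 50.4, 57.7 and 59.6. Il9r, the interleukin 9 receptor gene, had a site at 4.70 kb (32182517 to 32182846) with 50.4, 52.9 and 63.6. These 4 were the sites above the middle of all 3 lists.

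The others had at least 1 lower value. The site 28.6 kb from Alox12, a lipoxygenase gene, had 61.1, 47.1 and 51.1. Tenm2, which encodes the adhesion protein teneurin 2, held 2 of these 10 sites (36526277 to 36526743 and 37075419 to 37075710), with 47.0, 55.4 and 74.8 at the first. Next to Sh3pxd2b, a podosome scaffold gene, a site at 6.35 kb (32341120 to 32341427) had 72.7 in K365T, 45.4 in R377H and 78.9 in R448Q, the highest value of the 80 sites in K365T and in R448Q. Sar1b, a GTPase gene of vesicle coats, had a site at 4.32 kb and Sgcd, the delta-sarcoglycan gene, one in its body, with lowest percentiles of 44.9 and 43.3. The last of the 10 places was tied, as a site inside Efcab3 (105021089 to 105021414) had the same lowest percentile as that in Sgcd. The Efcab3 site had 43.3 in K365T, 68.7 in R377H and 76.4 in R448Q. Tenm2 held 5 of the 80 sites in its body, more than any other gene, all in bin 8, where 8 of 265 regions had the pattern. Osbp2, an oxysterol-binding protein gene, and Sdk2, an adhesion protein gene, held 2 each. These counts were not set against gene length or the number of regions in each gene.

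The reverse pattern was rarer on chromosome 11. Regions in the other 7 lists and in none of the 3 numbered 6 there, 0.0365% of its regions, against 0.160% over all chromosomes. They lay 89.7 kb from Etaa1, an activator of the ATR checkpoint kinase, inside Ebf1, a B cell transcription factor gene, inside Epn2, which encodes an endocytic adaptor, 73.0 kb from Pmp22, a myelin protein gene, inside Gas7, a neurite growth gene, and inside Lasp1, which encodes an actin-binding protein. Their median percentiles over the 7 lists were 15.2 near Etaa1, 31.0 in Ebf1, 24.1 in Epn2, 32.4 near Pmp22, 48.7 in Gas7 and 21.9 in Lasp1. By this median these sites were also below the middle of the lists. In single lists some stood above it, with Gas7 at 60.4 in H455R and 54.7 in R377C, Pmp22 at 53.8 in R377C and Epn2 at 51.9 in WT.

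Regions in all 10 lists numbered 6074, 36.9% of the chromosome's regions, near the 36.5% over all chromosomes. The strongest of them lay 15.3 kb from Crhr1, the receptor gene of corticotropin-releasing hormone (104114642 to 104115211), at the end of Elac2, and 439 kb from Pom121l12 (14159244 to 14160145), each at a median percentile of 100.0. Regions in WT alone numbered 532, 3.24% against 4.19% over all chromosomes, and were weak, with 61.9 near Rpl38, a ribosomal protein gene, 56.4 in Rps6kb1, the S6 kinase gene, and 54.2 near Olfr401 as the 3 highest percentiles. Regions in the 9 mutants and not in WT numbered 21, 0.128% against 0.0877%. The 3 with the highest median percentile lay 22.2 kb from Hs3st3b1, a heparan sulfate sulfotransferase gene, 155 kb from Rack1, a ribosomal scaffold protein gene, and 41.9 kb from Aipl1, a photoreceptor chaperone gene. At the Rack1 site the percentile was 89.2 in R377H and 76.0 in K365T, against 32.9 to 60.9 in the other 7 mutants. At the Aipl1 site it was 81.0 in R377H and 16.1 to 63.1 in the other 8. At the Hs3st3b1 site it was 71.9 in R377H, 70.3 in R448Q and 70.0 in S354F, and lowest in H455R with 6.99.

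Gene ends were more alike among lists than the sites as a whole. Of the 2075 chromosome 11 regions at gene ends 1309 were in all 10 lists, against 6074 of all 16442 regions. The counts that follow are of genes, not regions. Of the 1609 protein-coding genes of chromosome 11 in the RefSeq annotation, 1541 were assessed, 1121 had a gene-end peak in all 10 lists, 230 in none, and 190 (12.3%) in some lists and not in others. A gene in none can still have a covered promoter window, as Kif3a had in 10 lists and Ddc in 9. R377H had a gene-end peak at 1255 genes, K365T at 1227, R448Q at 1230, WT at 1234 and the other 6 at 1178 to 1223. In the pathways of LIF, STAT and ERK signalling all 11 assessed genes had one in every list. They include Lif, the ligand, at percentiles of 84.5 to 93.1, and Stat3, its transcription factor, at 93.9 to 96.6. The 12 assessed genes of chromatin and genome stability, such as Suz12 of Polycomb complex 2 and Trp53, also had one in every list. Of 15 Wnt and axis genes 13 did. Wnt9b, a Wnt ligand gene, lacked it in Q418R only, and Axin2, a feedback inhibitor of Wnt signalling, had it in WT only, at a percentile of 6.48. The promoter windows of both genes in the sequence table were covered in all 10 lists.

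Clustered gene families and cytokine genes were described by the same count. In the Hoxb cluster, 6 of 10 genes of these anterior-posterior patterning factors had a gene-end peak in all lists. Hoxb5 had one in R377H (percentile 7.14) and R448Q (47.9) only, Hoxb6 in 8 lists with Q418R and H455R lacking it, and Hoxb7 in 9 with Q418R lacking it. Around the alpha globin genes, embryonic Hba-x had one in WT, R339Q, R342C, K365T and R377H, and the adult genes Hba-a1 and Hba-a2 in none. Of 8 genes of the cytokine locus of type 2 helper T cells, Il4 had one in WT (38.5), R339Q (19.3), K365T (47.0) and R377H (67.2). Csf2, which encodes the growth factor GM-CSF, had one in R377H only (5.01). Il5, Il13 and Kif3a had one in none, though the promoter window of Kif3a was covered in all 10 lists.

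Of 11 CC chemokine genes, which attract leukocytes, 0 had a gene-end peak in all lists and 8 in none. Ccl5 had one in R377H only (percentile 12.2), Ccl6 in 8 lists, with R377H and R448Q lacking it, and Ccl9 in 7, with R339Q, R342C and K365T lacking it. Counted over the whole span of these genes with 10 kb on either side (82025577 to 83674683), R377H held 143 of 177 merged regions (80.8%). K365T held 103, R448Q 97 and the other 7 lists 91 to 117. Most of that span is the stretch between Ccl1 (to 82179812) and Ccl5 (from 83525778), which holds none of the 11 genes. Over the whole chromosome R377H held 11950 of 16442 regions (72.7%). At the type I keratin locus, whose genes encode epithelial filaments, it held 54 of 75 (72.0%), near that share, with 37 in K365T, 40 in R448Q and 28 to 49 in the other 7. There Krt12 had a gene-end peak in R339Q, R377C, R448Q and H455R, Krt15 in R342C, R377C, R448Q and H455R, and Krt9 in R339Q and R342C. Among myosin heavy chains, the motor proteins of muscle and non-muscle cells, Myh10 had one in all lists, Myh3 in WT, R339Q and Q418R, and Myh13 in 7 lists. R377H held 179 of 258 regions (69.4%) of the span from Myh3 to Myh10, and WT 189. That span includes the stretch between Myh13 (to 67371587) and Myh10 (from 68691915), which holds none of the 7 listed genes. In the Hoxb cluster R377H held 39 of 58 (67.2%), and R377C, R448Q and H455R held 42 each.

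Facts of the whole series bear on these values as follows. The cell type label was checked at gene ends, where all 9 markers of naive embryonic stem cells had a peak in every list. Of 6 fibroblast markers 5 to 6, of 3 primitive endoderm markers 1 to 2 (Gata4 in 0 lists) and of 4 trophoblast markers 1 to 4 had one too, and their part in the results was not tested. The lists ranged from 121032 to 171719 peaks, and read depth is not given in the files. Peak names carry 2 numbered codes, which are consecutive except in the WT list (28 apart) and the K365T list (42 apart), and no label says what the codes stand for. Peak numbers skip 1.45% to 1.58% of each list's series on chromosome 11. Genes with an end in such a stretch, 68 of 1609, are not analysed here.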

How the data were processed

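Omni-ATAC-seq data of 20 samples (10 genotypes, 2 replicates each) were used as 10 peak lists, 1 per genotype, that the authors made from both replicates. Trim Galore, Bowtie2, MACS2 and deepTools are named in the submitters' processing notes, with build mm10 and no versions. No label states the duplicate handling, the transposase offset or the peak threshold. The deposited value per peak is a ratio without a header, taken from its values to be MACS2's fold enrichment over background. This value of the authors served only to rank or describe peaks within a list.

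Peaks were merged over lists where at least 1 bp overlapped. A bin or chromosome was compared by its share of a list over the median of the other 9 lists, in bins of 5 Mb with a median of at least 50 peaks and a limit of 0.2 (log2). Within-list percentiles give tied values their mean rank. Regions were placed by RefSeq gene positions of GRCm38.p6 (21887 protein-coding genes), whose chromosomes are those of mm10. A gene-end site lies within 1 kb of either annotated end. The authors' lists contain no read counts, so depth is unknown.

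Sites were named by rule: all sites of the 3 lists at gene ends, the 10 others with the highest lowest percentile, all 6 of the reverse pattern, the 3 strongest of the sets named beside them, and for each gene list the members that differ among lists first. Printed promoters are those that a region overlaps. The Abca9 and Kif2b windows hold no base of their region and are not printed, Olfr315 was not matched in the promoter table, and Gm42092, Lypd9, Kcnj16 and Elac2 were added after their values were seen. The chromosome, the 3 lists, the gene lists and the rule were chosen with earlier results of these data known. Python 3.11.15, pandas 2.3.3, numpy 2.4.6, scipy 1.17.1 and matplotlib 3.10.9 were used, and the merging, the bins and the search for sites of the 3 lists were tested on simulated lists. Lists of equal length, the stronger 50% of peaks, other bins, limits, references and overlaps were tried as alternatives.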

Additional observations from a re-analysis of the deposited data

How the results depend on the processing

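No paired analysis was possible because each deposited list combines both replicates, and leaving out a replicate was not possible for the same reason. Read depth is unknown, and no limit on weak sites was set from it.

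The order of the chromosome 11 shares (R377H, K365T, R448Q, then the other lists) was the same under the 4 alternatives in which shares were recomputed, but with equal lists R448Q and R339Q were nearly level. With lists cut to the 121032 strongest peaks the shares were 8.13% in R377H, 7.59% in K365T and 7.30% in R448Q. With the stronger 50% of each list they were 7.78%, 7.32% and 7.14%, without chromosomes 1, 3, 8 and 17 in the total 10.8%, 10.3% and 10.2%, and by covered bp 8.87%, 8.25% and 7.93%. The other 7 lists had 6.82% to 7.29%, 6.72% to 6.90%, 8.98% to 9.30% and 7.21% to 7.44%.

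The shift was 0.22 in R377H, 0.12 in K365T and 0.063 in R448Q with equal lists, where R339Q, the shortest list, had 0.060. It was 0.19, 0.10 and 0.064 with the stronger 50%, and 0.19 in K365T and 0.17 in R448Q without the 4 chromosomes. In alternatives chosen after seeing the data, the parts by strength from weakest to strongest gave 0.41, 0.22, 0.15, 0.20 and 0.20 in R377H, and for parts 1, 3 and 4 they gave 0.21, 0.10 and 0.079 in K365T and 0.18, 0.036 and 0.036 in R448Q. Stretches before 45 Mb gave 0.35 in R377H and 0.29 in R448Q, and that beyond 85 Mb 0.18 in R377H. Between 45 and 85 Mb K365T had 0.13, and R448Q changed side, to -0.066.

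Bins past the limit numbered 38, 9 and 16 (R377H, K365T, R448Q) of 53 bins of 2 Mb, 8 in R377H and 3 in R448Q of 13 bins of 10 Mb, 9, 1 and 4 at a limit of 0.3, and 21 in K365T and 16 in R448Q at 0.1. With equal lists K365T had 5. Median percentiles with equal lists were 47.6, 48.3 and 48.5, and over shared regions 49.6, 48.8 and 47.3. The other 7 lists had 47.1 to 49.5 with equal lists and 44.9 to 46.1 over shared regions.

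Sites of the 3 lists only numbered 208 when 1 other list was allowed, 4 with the stronger 50% of the 3 lists, and 37 outside the first 45 Mb, an alternative chosen after seeing the data. Leaving out 1 of the other 7 lists gave 85 to 118, most without WT. The ratio to the other chromosomes was 1.66 outside the first 45 Mb, 1.94 with the stronger 50% and 2.46 to 2.76 otherwise. Among regions in 3 of the other 7 lists, equal lists gave differences of 17.3 points in R377H, 8.35 in K365T and 5.66 in R448Q, an alternative chosen after seeing the data. Where the shorter lists hold fewer peaks, the construction itself lowers a count. Otherwise the cause was not tested.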
